A study of Homo sapiens with 4 samples.

Results

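The genes described here are 10 genes of the human mitochondrial chromosome. Of these, 9 encode proteins of the respiratory chain or ATP synthase and 1 encodes a ribosomal RNA. They were chosen by name from a count table of 25693 human genes, as the rows whose Ensembl identifier maps to MT-CO1, MT-CO2, MT-CO3, MT-ND1, MT-ND2, MT-ND4, MT-ND5, MT-CYB, MT-ATP6 or MT-RNR2. All 10 were found and all 10 passed the filter on low counts. The table holds 28 of the 37 genes annotated on this chromosome, so 18 others served as the nearest company.

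The mitochondrial chromosome is a small circle present in many copies per cell. Each strand is transcribed into a long precursor, from which the messenger and ribosomal RNAs are released largely by removal of the transfer RNAs that lie between them. A mitochondrial poly(A) polymerase then adds short tails. The proteins are core subunits of the respiratory chain and ATP synthase and are assembled with many subunits encoded in the nucleus. The share of reads from this chromosome is widely used in single-cell work as a measure of cell quality, because leaky or stressed cells tend to lose cytoplasmic RNA sooner than mitochondrial RNA.

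The cells were NGP, an established human neuroblastoma line with amplified MYCN, synchronised by removal of serum in both arms. For the next 24 h they received Nutlin-3, a small molecule that keeps MDM2 from binding p53, or ethanol as the solvent control. Each arm had 2 libraries made on the ddSeq droplet device with a 3′ kit that primes on poly(A), and these differed in the dilution of synthetic ERCC spike-in RNA, 1000-fold or 10000-fold. The 250 table columns of a treatment do not tell its 2 libraries apart, so each treatment was 1 pool without replicates, no test was possible and no p-value is given.

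Human counts were 1342134 in the ethanol pool and 1301232 in the Nutlin-3 pool, with 2989 and 4007 ERCC counts beside them. Columns fell into 113 large ones of at least 4000 counts and 137 small ones in each treatment. Of the 250 column names of a treatment, 219 also occurred in the other treatment, and 0 of those changed size class. The totals of same-named columns had a Pearson correlation of 0.98 over 219 names, so columns cannot be taken as cells of 1 treatment alone. How the shared names arose was not tested. The 11 markers of adrenergic neuroblastoma were all present and summed to 2493 CPM (counts per 1000000 counts) in ethanol and 2535 CPM in Nutlin-3. The 5 stromal markers in the table summed to 84.2 and 83.8 CPM, the 4 epithelial ones to 16.4 and 26.9 CPM, and the single blood marker in the table had 0 and 4 counts.

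The annotated 3′ ends of the 10 genes are shown because they differ in a way peculiar to the organelle. They are the last 30 bases of each annotated transcript (GENCODE 29, GRCh38), all on the plus strand. Where the tail of each RNA begins was not measured, so an annotated end need not be the tailed end on which the kit primes. Capitals mark the last codon or the bases left over after whole codons.
MT-CO1 chrM:7416-7445 +: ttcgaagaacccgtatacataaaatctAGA
MT-CO2 chrM:8240-8269 +: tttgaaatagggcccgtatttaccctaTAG
MT-CO3 chrM:9961-9990 +: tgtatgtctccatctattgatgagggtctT
MT-ND1 chrM:4233-4262 +: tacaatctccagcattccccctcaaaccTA
MT-ND2 chrM:5482-5511 +: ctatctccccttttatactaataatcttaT
MT-ND4 chrM:12108-12137 +: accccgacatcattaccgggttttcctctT
MT-ND5 chrM:14119-14148 +: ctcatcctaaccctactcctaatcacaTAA
MT-CYB chrM:15858-15887 +: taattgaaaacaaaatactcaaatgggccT
MT-ATP6 chrM:9178-9207 +: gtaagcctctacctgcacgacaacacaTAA
MT-RNR2 chrM:3200-3229 +: tatacccacacccacccaagaacagggttt
As annotated, MT-CO1, MT-CO2, MT-ND5 and MT-ATP6, 4 of the 9 coding genes, end on a whole codon. The other 5 stop short, with a lone T in MT-CO3, MT-ND2, MT-ND4 and MT-CYB and with TA in MT-ND1. For those 5 the stop codon is completed only when the tail is added, which is established biology of this chromosome and was not measured here. MT-RNR2 is not translated and so carries no capitals. The last annotated base of MT-ATP6, position 9207, is also the first of MT-CO3, and which of the 2 RNAs holds it was not measured.

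The 10 genes together gave 13074 counts in ethanol and 12151 in Nutlin-3. In the ethanol pool that was 0.974% of human counts, with a 95% exact binomial interval of 0.958 to 0.991. The Nutlin-3 pool had 0.934%, with an interval from 0.917 to 0.951. These intervals, and all others here, cover counting error only. Ranked by count with no regard to length, 8 of the 10 most counted genes in ethanol were among these 10, and 7 in Nutlin-3. MT-CO3 and MT-ND4 held ranks 1 and 2 in both pools.

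The 4 complex I genes of the set are described first, in their order along the chromosome. MT-ND1, at chrM:3307-4262, encodes a membrane subunit near the quinone site, with 1426 counts in ethanol and 1187 under Nutlin-3. MT-ND2, at chrM:4470-5511, encodes a subunit of the proton-pumping membrane arm and had 652 and 675 counts. MT-ND4, at chrM:10760-12137, encodes another pumping subunit and had 1838 and 1688 counts. The third pumping subunit, MT-ND5 at chrM:12337-14148, was the least counted of the 10 with 329 and 297 counts, 138th of all genes in ethanol and 150th in Nutlin-3. The 4 complex I genes thus spanned nearly the whole range of the set.

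Among the other enzymes, MT-CYB, at chrM:14747-15887, encodes cytochrome b, the only subunit of complex III made in the organelle, with 1399 counts in ethanol and 1253 under Nutlin-3. MT-CO1, at chrM:5904-7445, encodes the catalytic subunit of cytochrome c oxidase and had 880 and 819 counts. MT-CO2, at chrM:7586-8269, encodes the subunit that takes electrons from cytochrome c and had 1774 and 1559 counts. MT-CO3, at chrM:9207-9990, encodes the third core subunit and had 1921 and 1861 counts. As reads were assigned, the catalytic subunit of cytochrome c oxidase therefore had fewer counts than either of its partners in both pools. Its level is uncertain, because a nuclear copy described below has the same end. MT-ATP6, at chrM:8527-9207, encodes the membrane subunit of ATP synthase that carries the proton path and had 1253 and 1198 counts. MT-RNR2, at chrM:1671-3229, is the large ribosomal RNA and had 1602 and 1614 counts in these poly(A)-primed libraries.

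**Figure D1:**
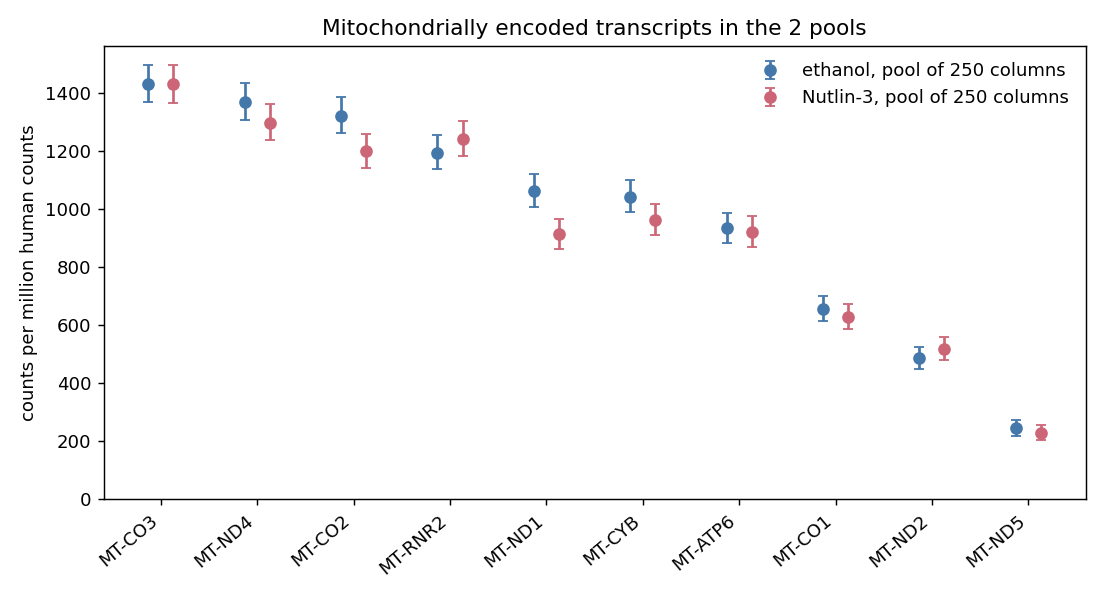
Level of each of the 10 genes in the ethanol pool (blue) and the Nutlin-3 pool (red), in CPM of human counts on a linear axis from 0. Bars are 95% exact binomial intervals for counting error. Without nuclear copies added, MT-CO3 stands highest and MT-ND5 lowest in both pools.

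Division by transcript length changed the order. MT-ATP6 moved up, MT-ND4 and MT-RNR2 moved down, and MT-ND5 stayed last. In CPM per kilobase, MT-CO2 stood at 1932 and MT-CO3 at 1826 in ethanol, and MT-CO3 at 1824 and MT-CO2 at 1752 in Nutlin-3, with overlapping counting intervals in each pool. Next came MT-ATP6 at 1371 in ethanol and 1352 in Nutlin-3, its interval clear of both neighbours. MT-ND1 (1111 and 954), MT-ND4 (994 and 941), MT-CYB (914 and 844) and MT-RNR2 (766 and 796) followed in the same order in both pools. In ethanol the intervals overlapped only between MT-ND4 and MT-CYB in that run, and in Nutlin-3 between MT-ND1 and MT-ND4 and between MT-CYB and MT-RNR2. MT-ND2 (466 and 498) and MT-CO1 (425 and 408) came next, with overlapping intervals in ethanol alone. MT-ND5 was last at 135 and 126. A kit that counts 3′ ends does not sample the whole transcript, so the scale per length lowers long genes such as MT-ND5 and MT-CO1.

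None of the 10 genes reached a log2 fold change of 0.32 in either direction between treatments, the size used here to call a gene in the absence of replicates. Of the 14830 genes that passed the filter, 14.9% were higher in Nutlin-3 by that size and 12.4% were lower. Highly counted genes scatter less, and among the 145 genes at least as abundant as MT-ND5 the shares were 8.97% higher and 6.90% lower. A count of 0 of 10 lies near those shares and does not set the mitochondrial genes apart.

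Summed over the 10 genes, the log2 fold change was -0.06 (-0.10 to -0.02), with negative values meaning a lower level under Nutlin-3. Of the 10 log2 fold changes 7 were under 0 and 3 over 0, with a median of -0.07, beside a median of -0.00 over all genes and of 0.08 over the 145 abundant ones. MT-ND1 had the lowest value, -0.22 (-0.33 to -0.11), MT-CO2 was next at -0.14 (-0.24 to -0.04) and MT-CYB followed at -0.11 (-0.22 to -0.00195). Those were the 3 genes whose counting interval lay wholly under 0, and 0 had an interval wholly over 0. The middle 95% of the abundant genes ran from -0.37 to 0.45, so all 10 mitochondrial genes lay inside that range. MT-ND2 was highest at 0.10 (-0.06 to 0.25) and MT-RNR2 was at 0.06 (-0.04 to 0.16).

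By enzyme, the 4 complex I genes summed to 4245 counts in ethanol and 3847 in Nutlin-3, a log2 fold change of -0.10 (-0.16 to -0.03). The 3 cytochrome c oxidase genes summed to 4575 and 4239, which is -0.06 (-0.12 to -0.00341). The 9 coding genes without MT-RNR2 summed to 11472 and 10537, which is -0.08 (-0.11 to -0.04). With spike-in scaling every value shifts by -0.47, which would place all 10 genes past -0.32, together with most other genes. The libraries of a treatment differed in ERCC dilution and cannot be told apart, so this shift cannot be separated from the mix of libraries. The sign of a single gene relative to the others is unaffected by that shift.

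The small difference did not have the same sign in large and in small columns. In large columns the 10 genes had 10815 counts in ethanol and 9952 under Nutlin-3, a log2 fold change of -0.08 (-0.12 to -0.04). In small columns they had 2259 and 2199, a log2 fold change of 0.10 (0.01 to 0.18). MT-ND1 was at -0.27 (-0.39 to -0.14) in large columns and 0.07 (-0.20 to 0.34) in small ones. MT-CO2 was at -0.16 (-0.27 to -0.06) and 0.04 (-0.20 to 0.29), and MT-ATP6 at -0.06 (-0.19 to 0.07) and 0.22 (-0.05 to 0.49). MT-CO3 had -0.04 in large columns and 0.25 in small columns, the latter with an interval of 0.01 to 0.48. MT-ND4 and MT-ND5 were under 0 in both classes, while MT-ND2 and MT-RNR2 were over 0 in both, all with intervals that held 0. The difference between the classes has no replicates behind it. Small columns of Nutlin-3 held 140860 human counts with a median total of 830, against 151563 and 871 in ethanol. Of them, 12 in Nutlin-3 and 21 in ethanol had at least 2000 counts. The share declines with the total among small columns, and whether column size bears on the sign was not tested.

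**Figure D2:**
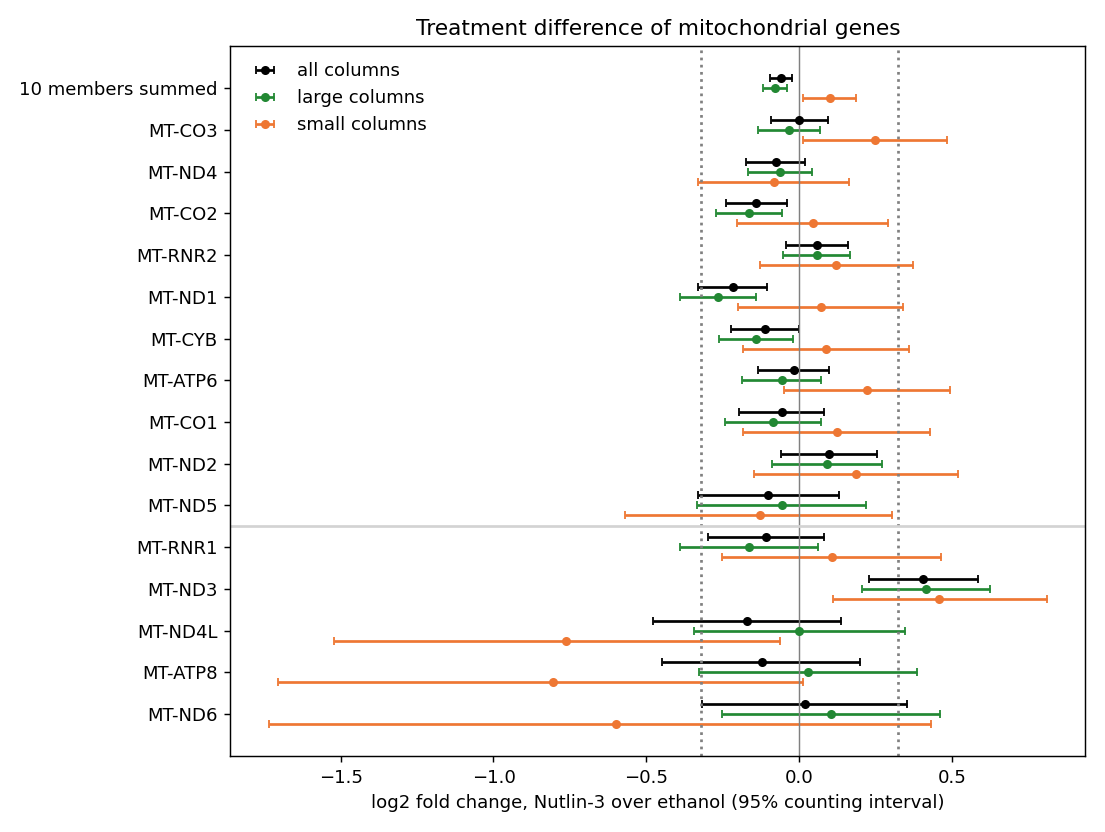
Log2 fold change, Nutlin-3 relative to ethanol, for the 10 genes, their sum and the other genes of the chromosome with over 100 counts per pool, in all columns (black), large columns (green) and small columns (orange). Bars are 95% counting intervals and dotted lines mark 0.32 in either direction; with spike-in scaling all points of all columns move by -0.47.

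Same-named columns were set side by side because their totals move together. Over the 113 names of large columns, the share of the 10 genes in the 2 treatments had a Spearman correlation of 0.75 and a Pearson correlation of 0.98. The latter was 0.72 without 1 name whose mitochondrial share exceeded 5%. Over the 106 small names the Spearman correlation was 0.89. The share was lower in Nutlin-3 in 74 of 113 large names, with a median difference of -0.05 percentage points, and lower in 40 of 106 small names, with a median difference of 0.11 percentage points. Totals within a name were not equal, with a Pearson correlation of 0.68 over the large names and 0.92 over the small ones. Among small columns the share also declines with the total, and the differences in share were not adjusted for it. The pairs of columns are described without a test.

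**Figure D3:**
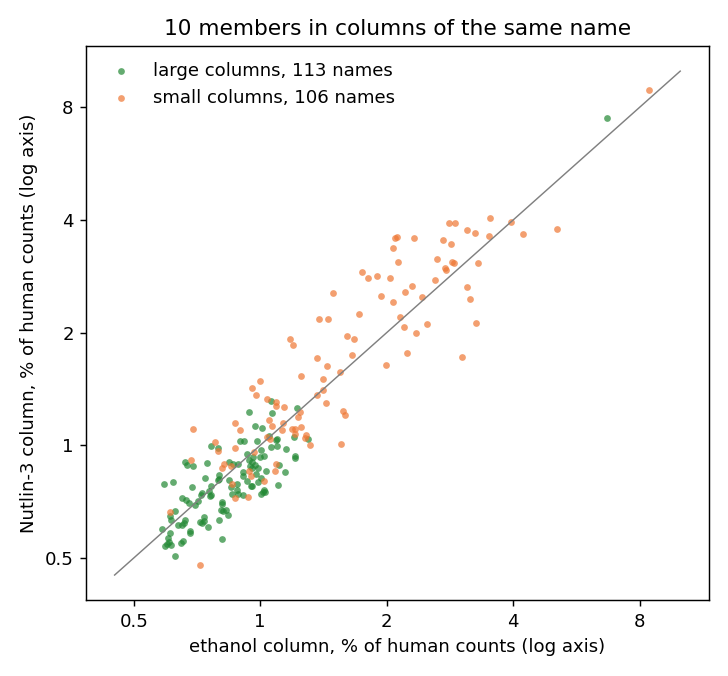
Summed share of the 10 genes, in percent of human counts, in columns of the same name in ethanol (horizontal, log axis) and Nutlin-3 (vertical, log axis), for 113 large names (green) and 106 small names (orange). The line marks equal shares; 1 large and 1 small name sit far above the rest at 6.70% and 7.51%, and at 8.43% and 8.90%.

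Per column, the 10 genes took 0.583% to 6.70% of human counts in the large ethanol columns, with a median of 0.844%. The large Nutlin-3 columns had a median of 0.787% and a range of 0.505% to 7.51%. In both treatments 1 column made the upper end, the next highest being at 1.30% in ethanol and 1.31% in Nutlin-3. The median of the small ethanol columns was 1.66% (0.609% to 8.43%), and that of the small Nutlin-3 columns was 1.77% (0.479% to 8.90%). The 2 size classes overlapped in share, and their medians differed in the same direction in both treatments.

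Columns with over 5% of counts on the mitochondrial chromosome numbered 3 in each treatment, and 2 names were among them in both. One was a large column of 9412 counts in ethanol and 8298 in Nutlin-3, in which the 10 genes had 629 and 618 counts. It held 87 and 84 counts of MT-CO3, against at most 26 and 30 in any other large column. The other was a small column of 1511 and 1370 counts with 127 and 121 mitochondrial counts. The remaining one in ethanol had 436 counts in all and a share of 5.08%, against 3.78% under the same name in Nutlin-3. The remaining one in Nutlin-3 had 478 counts, a share of 8.19% that was above that of the large column, and no partner of that name, and MT-RNR2 alone gave 11 of its 39 mitochondrial counts.

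**Figure D4:**
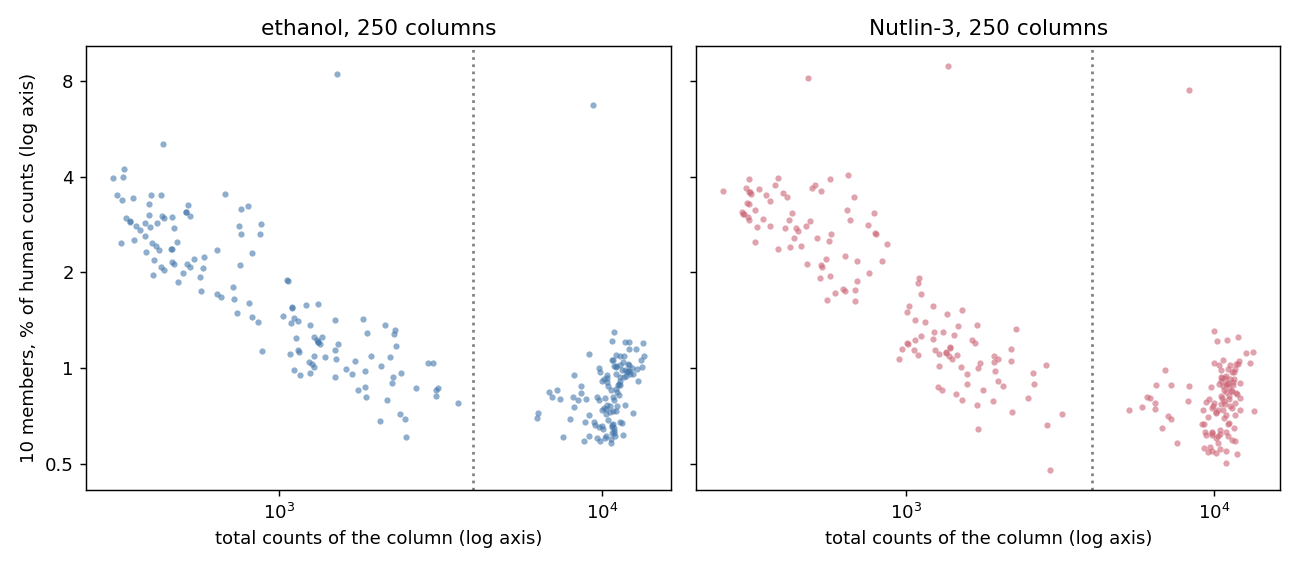
Summed share of the 10 genes in each of the 250 columns of ethanol (left) and Nutlin-3 (right), in percent of human counts on a log axis, against the total of the column on a log axis. The dotted line is the split at 4000 counts; among small columns the share declines with the total, from medians of 2.79% and 3.08% under 500 counts to 0.897% and 0.884% above 2000.

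Shares were higher in small columns, and more so the smaller the column. Summed over large columns the 10 genes made 0.908% of human counts in ethanol (0.891 to 0.926) and 0.858% in Nutlin-3 (0.841 to 0.875). Over small columns they made 1.49% (1.43 to 1.55) and 1.56%. Within the small columns of ethanol the pooled share was 2.82% under 500 counts, 2.25% from 500 to 1000, 1.37% from 1000 to 2000 and 0.934% above 2000. In Nutlin-3 the same steps gave 3.26%, 2.37%, 1.28% and 0.873%. The mitochondrial counts themselves changed far less than the totals, with medians per column of 11, 13, 16 and 24 in ethanol and 11, 14, 15 and 23 in Nutlin-3. No small column of either treatment had fewer than 8 counts of the 10 genes, however low its total. Whether the higher share of small columns bears on cell quality was not tested. The Spearman correlation of share with total was -0.86 over the 137 small ethanol columns and -0.87 over the 137 small Nutlin-3 columns. In the 113 large columns it had the opposite sign, 0.48 and 0.30. Share and total hold the same counts, so these correlations are descriptions only.

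All 10 genes took a smaller part of large columns than of small ones, in both treatments, by more than 0.32 on the log2 scale when scaled to totals of human counts. The log2 ratio of large over small was -0.71 for the sum in ethanol (-0.78 to -0.65) and -0.86 in Nutlin-3 (-0.93 to -0.80), but scaled to ERCC counts it was -0.06 and 0.08. MT-ND5 had the lowest ratio, -1.78 in ethanol and -1.68 in Nutlin-3, and MT-ND2 and MT-CO1 came next with -1.25 and -1.02 in ethanol and -1.31 and -1.20 in Nutlin-3. At the other end stood MT-CO3 at -0.48 and -0.73 and MT-ND4 at -0.59 and -0.54. MT-CO2 (-0.58 and -0.76), MT-ND1 (-0.65 and -0.96), MT-CYB (-0.66 and -0.86), MT-RNR2 (-0.66 and -0.70) and MT-ATP6 (-0.76 and -1.01) lay between. Scaled to ERCC counts instead, 4 of the 10 single ratios changed sign in ethanol and 5 in Nutlin-3. The mix of the ERCC dilutions in each size class is not known.

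The same pattern was present in every other gene of similar count. Among all genes tested, 17.7% of 12729 in ethanol and 17.2% of 12763 in Nutlin-3 were lower in large columns by that size, and the median ratio of all genes was 0.73 and 0.70. Among genes with at least as many counts as MT-ND5, however, all were lower in large columns, 100% of 139 in ethanol and 100% of 152 in Nutlin-3. Their median ratios were -1.63 and -1.71. The shift of all 10 mitochondrial genes is therefore the same in kind as that of every other gene as highly counted. Across the 129 and 142 such genes outside the set, the ratio had a Spearman correlation with the count of 0.78 in each treatment, and genes are not independent replicates.

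The mitochondrial genes lay along the same slope. MYCN, with 1140 counts in ethanol and 877 in Nutlin-3, had ratios of -0.85 and -1.14, the highest outside the set. CCT2, a chaperonin gene with 884 and 806 counts, had -1.07 and -1.32, beside MT-CO1 with its 880 and 819 counts. RPS19, a ribosomal protein gene with 669 and 792 counts, had -1.22 and -1.28, near MT-ND2. HAND2, a neuroblastoma transcription factor gene with 342 and 309 counts, had -1.78 and -1.92. That was near MT-ND5 in ethanol but lower than its -1.68 in Nutlin-3. The other 7 mitochondrial genes had ratios above all other genes of this abundance, and all 7 also had more counts than any of them. No gene from outside the chromosome had as many counts to set beside them.

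**Figure D5:**
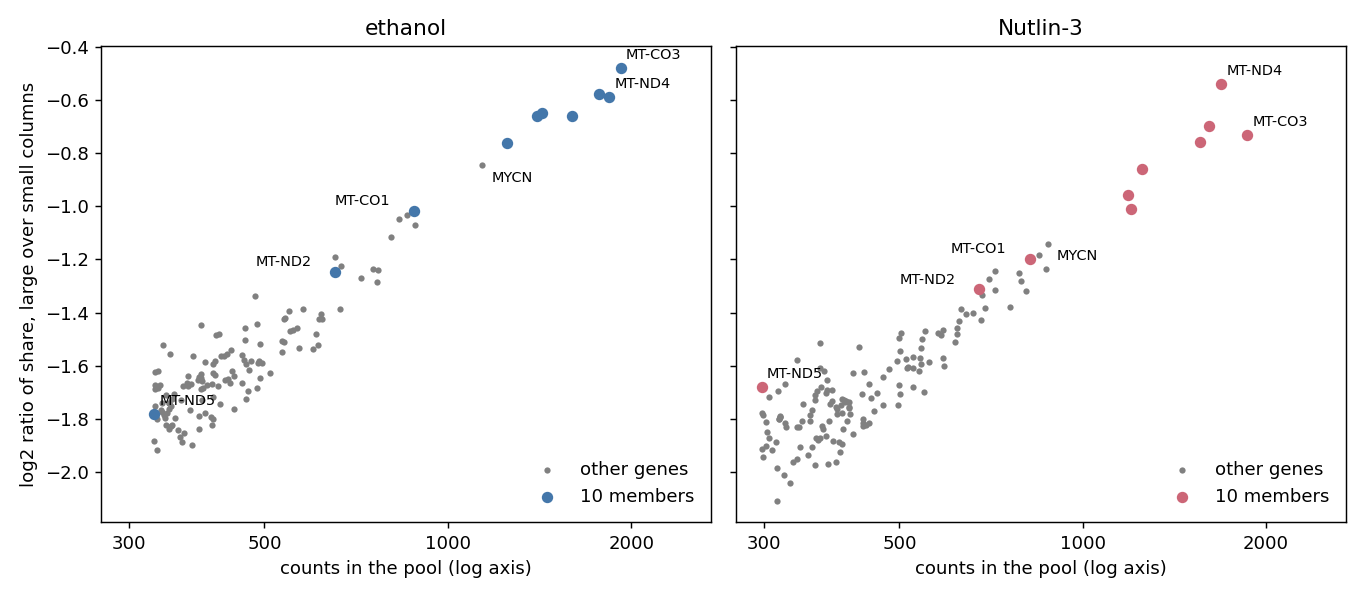
Log2 ratio of the share in large over small columns, scaled to human counts, against the counts in the pool (log axis) for all genes with at least as many counts as MT-ND5, in ethanol (left) and Nutlin-3 (right). The 10 mitochondrial genes (coloured) continue the slope of the other genes (grey), from about the level of HAND2 for MT-ND5 to -0.48 for MT-CO3 in ethanol; scaled to ERCC counts, the sum of the 10 is at -0.06 in ethanol and turns to 0.08 in Nutlin-3.

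The counts per column differed between members. In large columns each of the 10 genes was seen in 113 of 113 columns of either treatment. MT-CO3 had a median of 13 counts per large column in both, MT-ND4 a median of 12, and MT-ND5 a median of 2. In small columns MT-CO2, MT-CO3, MT-ND4, MT-CYB and MT-RNR2 were seen in 137 of 137 columns of both treatments, though medians were 1 or 2. MT-ND2 had exactly 1 count in 124 of 137 small ethanol columns and 120 of 137 small Nutlin-3 columns. MT-ND5 was seen in 95 and 80 of the 137. MT-CO3 had exactly 1 count in 53 and 46 of the 137, so single counts were less common for the most counted member.

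The spread between columns was small once the single extreme column was set aside. The ratio of variance to mean, which is 1 for independent counts of equal expectation, was 4.93 for MT-CO3 over large ethanol columns and 1.74 without columns above 5% mitochondrial counts. For MT-RNR2 it was 5.25 and 1.70, and for MT-CO1 2.95 and 0.93. In Nutlin-3 it dropped from 4.88 to 1.72 for MT-CO3 and from 3.81 to 0.749 for MT-CO1. MT-ND5 lay under 1 with or without that column, at 0.577 and 0.520 in ethanol and 0.588 and 0.480 in Nutlin-3. For MT-ND2 in small columns the ratio was lowest of all 10 without the high columns, at 0.104 in ethanol and 0.0973 in Nutlin-3. Counts with less spread than independent counts are not those that the counting intervals assume, and the source of the low spread was not tested.

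After every column was thinned to 700 counts, each of the 10 genes was seen in a larger share of small than of large columns in both treatments. MT-ND5 was then seen in 18.6% of 113 large ethanol columns and 61.7% of the 81 small ones deep enough, and in 14.2% of 113 and 44.6% of 74 in Nutlin-3. MT-CO3 was seen in 56.6% and 74.1% in ethanol and in 57.5% and 78.4% in Nutlin-3. Without thinning both genes were seen in every large column. The 56 and 63 shallower small columns were left out.

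Composition within the set shifted with column size in the direction of evenness. MT-ND5 made 2.12% of the counts of the 10 genes in large ethanol columns and 4.43% in small ones, and 2.15% and 3.77% in Nutlin-3. MT-ND2 went from 4.63% to 6.68% and from 5.22% to 7.09%. MT-CO3 went the other way, from 15.1% to 12.8% and from 15.6% to 14.2%, as did MT-ND4, from 14.3% to 13.1% and from 14.4% to 11.5%. Rare members thus gained and common members lost part of the sum in small columns of both treatments.

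Over the 113 large columns the shares of the 10 genes went up and down together to a moderate degree. The median Spearman correlation over the 45 pairs was 0.37 in ethanol, with MT-ND4 and MT-CYB highest at 0.58, and 0.33 in Nutlin-3, with MT-CO2 and MT-CO3 highest at 0.62. Pairs with MT-ND5 ran only from 0.03 to 0.21 in ethanol and from -0.02 to 0.15 in Nutlin-3, where MT-ND5 had a median of 2 counts per column. In small columns the median pair was at 0.66 and 0.72, where the shares have the column total in common. MT-ND5 stayed apart there too, from -0.05 to 0.12 in ethanol and from -0.26 to -0.17 in Nutlin-3.

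Outside the mitochondrial chromosome, 10 genes had at least 500 CPM, and the share of each per large column was correlated with that of the summed set. Averaged over both treatments the 5 most alike were MYCN at 0.53, MTCO1P12 at 0.50, GAPDH, a glycolytic enzyme gene, at 0.47, CCT2 at 0.46 and RPS19 at 0.46. The median of the 10 was 0.46, so the leading genes stand little above the others. MTCO1P12 is a nuclear copy of MT-CO1, and the ends of both transcripts have the same sequence.

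Nuclear copies of mitochondrial sequence bear on how well the counts of a member are separated. By their symbols, 72 genes of the table are such copies, most of those with many counts annotated as pseudogenes, with 3605 counts in ethanol and 3185 in Nutlin-3, as many as 27.6% and 26.2% of the counts of the 10 genes. The 3 with most counts lie in 1 stretch near the start of chromosome 1. MTATP6P1, at chr1:633696-634376, had 858 and 718 counts and is 98.5% identical to MT-ATP6 over 681 bases. MTCO1P12, at chr1:631074-632616, had 831 and 717 counts and is 98.7% identical to MT-CO1 over 1542 bases, with all of the last 100 bases the same. MTND1P23, at chr1:629062-629433, had 654 and 592 counts and matches the last 352 bases of MT-ND1 at 99.1%. The last 30 bases printed for MT-CO1 and MT-ATP6 are the same in their copies. The last 100 bases of MT-ND1 are also the same in MTND1P23, and 99 of the last 100 of MT-ATP6 in MTATP6P1, so 3′ reads from these ends can hardly be told apart for all 3 members.

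Each of these 3 copies had fewer counts than its member in both pools. Adding each copy to its member gave 1711 counts in ethanol and 1536 in Nutlin-3 for MT-CO1, a log2 fold change of -0.11 (-0.21 to -0.01) in place of -0.06. For MT-ATP6 the sums were 2111 and 1916, which is -0.09 (-0.18 to -0.00388) in place of -0.02. For MT-ND1 they were 2080 and 1779, which is -0.18 (-0.27 to -0.09) in place of -0.22. The level of these 3 members is therefore uncertain by the counts of the copies, while none of the 3 passes 0.32 either way. How the authors assigned reads that match several places is not given in the sources used here.

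Of the other genes of the chromosome, MT-ND3 was the one with over 100 counts that passed 0.32. It encodes a small complex I subunit and had 459 counts in the ethanol pool and 589 in the Nutlin-3 pool, a log2 fold change of 0.41 (0.23 to 0.59), with 0.41 in large columns and 0.46 in small ones. MT-RNR1, the small ribosomal RNA, had 490 and 440 counts, which is -0.11 (-0.30 to 0.08). MT-ND4L, whose end overlaps the start of MT-ND4, had 194 and 167, and MT-ATP8, which overlaps MT-ATP6, had 171 and 152. MT-ND6, the coding gene of the minus strand, had 153 and 150 counts, with ratios of large over small columns of -0.43 in ethanol and 0.31 in Nutlin-3. Its antisense position to the other genes means that its counts depend on strand-aware counting, which is not stated.

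The 13 transfer RNA genes in the table summed to 83 counts in ethanol and 116 in Nutlin-3, a log2 fold change of 0.53 (0.11 to 0.95). MT-TT, next to the end of MT-CYB, gave 48 and 49 of these. MT-TL1, MT-TI and MT-TV, which lie between or beside MT-RNR1, MT-RNR2, MT-ND1 and MT-ND2, had 5, 3 and 3 counts in ethanol and 14, 12 and 10 in Nutlin-3. MT-TF, MT-TC, MT-TY, MT-TG, MT-TR, MT-TH, MT-TS2, MT-TL2 and MT-TP had 7 counts or fewer in each pool. Nearly all of these counts, 82 and 115, came from large columns. The whole chromosome, with 28 genes, summed to 14624 and 13765 counts, a log2 fold change of -0.04 (-0.07 to -0.00761).

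Few nuclear genes for the same enzymes passed 0.32. Of 9 nuclear complex III genes 0 passed in either direction, from CYC1 (cytochrome c1) at -0.16 to UQCR11 at 0.15. Of 11 nuclear cytochrome c oxidase genes 0 passed, from COX8A at -0.14 to COX7C at 0.20, with a median of 0.08. Of 7 nuclear complex I core genes 0 passed, with NDUFS1 lowest at -0.19. Of 15 nuclear ATP synthase genes 1 was lower, ATP5MC1, a gene for the membrane ring, with 264 and 200 counts (-0.35). Another ring gene with the same mature product, ATP5MC2, had the highest value of that list, 258 and 303 counts (0.28).

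Among the genes that serve mitochondrial DNA and RNA, 1 passed. Of 15 genes for copying and transcription of the chromosome, RRM2B, the p53-inducible ribonucleotide reductase subunit, was that gene, with 46 counts in ethanol and 104 in Nutlin-3 (1.21), and TWNK, the helicase gene, was lowest at -0.27. Of 18 tested genes for processing, tailing and decay of mitochondrial RNA 0 passed, with FASTKD2 lowest at -0.17 and FASTK highest at 0.25. Of 20 tested genes for assembly of complexes III and IV 0 passed, with COX11 at -0.21 and COA5 at 0.20. The shares of these lists past the fold lie under the 14.9% and 12.4% of all genes, as they do for the 10 mitochondrial genes. All genes include many with far fewer counts, which scatter more. No share at matched counts was computed for the lists, so their low shares do not set them apart.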

How the data were processed

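The authors deposited whole-number counts per gene and column, for 25693 human genes and 500 columns of NGP cells. Not given in the sources used here are the aligner, genome build, annotation, use of molecular tags and cell filter. The word treated in a column name was read as Nutlin-3 and the word untreated as ethanol, and 0 columns had no treatment. The names do not give the library, so replicate numbers or pairs could not be used, and the labels do not say whether libraries came from separate cultures.

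Counts were summed over the columns of a treatment or size class, without ERCC species. Fold changes between treatments used TMM factors (edgeR 4.0.16, R 4.3.3; 1.0005 for ethanol, 0.9995 for Nutlin-3) and 0.5 added counts, after the edgeR filter with its minimum count of 10. Ratios between size classes used plain totals of human counts. Intervals at 95% are exact binomial or Poisson, from scipy 1.17.1 in Python 3.11.15. Fold recovery was tested on simulated data. Names and positions came from GENCODE 29 on GRCh38, which gave a symbol to 25602 genes.

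The 10 genes, the lists and the split at 4000 counts were chosen with earlier results of these data known. Genes were named by rule: all members, every other gene of the chromosome, the 3 nuclear copies with most counts, the highest and lowest of each list at a mean of at least 50 CPM, and the 5 most alike at 500 CPM. One item that the rule would name is not reported here. HAND2 was picked as a neighbour in count after its values were seen. Alternatives were plain totals, DESeq2 1.42.0 size factors, totals without mitochondrial genes, ERCC totals, 1 added count, no filter, single size classes, a split at 2000 counts, no shared names, no columns above 5% mitochondrial counts, thinning to 700 counts and medians per column. Chosen after seeing the data were the abundant genes as background, TMM for size classes, same-named columns and the addition of nuclear copies.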

Additional observations from a re-analysis of the deposited data

How the results depend on the processing

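No paired analysis was possible because the column names carry no library or replicate number. The log2 fold change of the 10 summed genes between treatments (-0.06) was -0.53 with ERCC scaling, 0.10 in small columns alone, -0.0053 without shared names and -0.17 after thinning. The count of members past a log2 change of 0.32 (0) was 10 with ERCC scaling and 2 after thinning, MT-CO1 and MT-ND5. The count of all genes past it (4041 of 14830) was 11662 with ERCC scaling (741 higher, 10921 lower), 2598 of 4762 tested in small columns, 199 of 394 without shared names and 13067 of 25693 without a filter. After thinning it was 3571 of 6023 tested genes, so 2 of 10 members does not set them apart. The ratio of large over small columns for the sum was -0.71 in ethanol and -0.86 in Nutlin-3. It was -0.98 and -1.03 with the split at 2000 counts, -0.057 and 0.081 with ERCC scaling, -1.35 and -1.47 with TMM, and -0.97 and -1.17 as medians per column. Members lower in large columns (10) numbered 3 in ethanol and 2 in Nutlin-3 with ERCC scaling. All genes lower in large columns (2255 and 2192) numbered 972 and 594 with ERCC scaling, 7698 and 7757 without a filter, and 4374 and 4394 with TMM. With ERCC scaling the ratio turned over in ethanol for MT-CO2 (0.080), MT-CO3 (0.18), MT-ND1 (0.0088) and MT-ND4 (0.069). It turned over in Nutlin-3 for MT-CO2 (0.19), MT-CO3 (0.21), MT-ND4 (0.40), MT-CYB (0.084) and MT-RNR2 (0.25). The cause of these changes was not tested, and the mix of the ERCC dilutions in each pool and size class is not known. Of the other values of single members, 26 of 113 moved by more than their counting interval between treatments, 25 of 70 between classes in ethanol and 16 of 70 in Nutlin-3. Without shared names no large column was left, so no ratio between classes could be had. Depth limits MT-ND5 in particular, with a median of 2 counts per large column.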

Other observations

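MTND3P19, a nuclear copy of MT-ND3 at chr5:100050719-100051063, had 23 counts in the ethanol pool and 60 in the Nutlin-3 pool, with a log2 fold change of 1.41 (0.71 to 2.19). The copy is 86.4% identical to MT-ND3, with 84 of the last 100 bases the same, and MT-ND3 itself was at 0.41. It was chosen after its values were seen. MTCO1P40 on chromosome 17 and MTND4P12 on chromosome 5, copies of MT-CO1 and MT-ND4 with 96.0% and 95.8% identity, had 155 and 156 counts and 155 and 137 counts, with log2 fold changes of 0.06 and -0.13.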
